A study of Mus musculus with 12 samples.

Results

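T cell receptor variable (V) segments are the germline gene pieces that encode the antigen-facing part of each receptor chain, and the 50 described here were taken from a mouse tumour RNA-seq series by gene symbol and by read count. A segment was taken when its symbol began with Trav, Trbv, Trgv or Trdv and its reads summed to 3 or more over all 12 libraries. By symbol the count table held 143 V segments among 43432 genes. Of these, 50 reached the minimum, 26 had 1 or 2 counts and 67 had none. The 50 segments together held 562 counts: 29 alpha-chain (Trav) segments held 163, 17 beta-chain (Trbv) segments 316, 1 gamma-chain (Trgv) segment 22 and 3 delta-chain (Trdv) segments 61. The minimum fell in a dense part of the range, with 9 segments exactly at 3 counts (all Trav) and 10 just below at 2 counts (7 Trav and 3 Trbv). Because the read sum chose the members, their abundance over the whole series is a description.

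The series compared tumours of 2 genotypes, 6 WT and 6 AHRKO, all from CR705, a pancreatic cancer line of the mouse; the AHRKO tumours are labelled as knockouts of the aryl hydrocarbon receptor (Ahr), a ligand-activated transcription factor. The series title raises the question of immune cell entry into tumours after loss of the receptor. The extraction text names tumours of either line as the RNA source, whereas other protocol texts are about cells in wells given compounds; no sample label names a compound, and all 12 were taken as untreated tumours. The labels read here do not state the host strain, sex and age, the number of knockout clones or whether each replicate was a separate animal, so the spread between libraries may be technical. Library totals ran from 14772343 to 35881469 counts. Ahr RNA did not separate the genotypes: it was 112 ± 8.17 CPM (counts scaled to a common library size) in WT and 102 ± 30.5 in AHRKO (SD, n = 6 each; log2 fold change -0.13 ± 0.17 SE, adjusted p = 0.606, edgeR quasi-likelihood test). Its level therefore does not check the genotype labels, and AHRKO names the label throughout. No library pair within a genotype agreed within sampling noise, with a lowest chi-squared per degree of freedom of 13.6.

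Each developing T cell joins 1 of many V segments to a joining segment, with a diversity segment between them in beta and delta chains, and the joined piece is spliced to a constant region. Most T cells carry a receptor of an alpha and a beta chain, and a smaller set carries a gamma and a delta chain. A tissue with many T cell clones shows many V segments at low level, while an expanded clone shows as a high share of a single segment in each chain. Some innate-like T cells use nearly fixed segments, and T cells that have entered a tumour are a usual source of rearranged receptor transcripts there.

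The ends of V segments show what a short read has to tell apart. The last 60 bases of 9 segments are printed 5′ to 3′ on the coding strand, from mm10 with the GENCODE M21 annotation. Capitals mark the codon of the last in-frame cysteine, the conserved residue at which the variable joint begins. The 3 Trbv13 segments are shown as close relatives of each other, and the others because the values below turn on them.
Trbv19 (chr6:41178989-41179048, plus strand): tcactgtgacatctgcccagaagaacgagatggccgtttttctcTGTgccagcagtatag
Trbv3 (chr6:41048769-41048828, plus strand): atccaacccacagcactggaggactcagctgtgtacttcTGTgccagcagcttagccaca
Trbv2 (chr6:41047936-41047995, plus strand): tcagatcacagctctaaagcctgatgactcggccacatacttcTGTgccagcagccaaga
Trbv13-1 (chr6:41116409-41116468, plus strand): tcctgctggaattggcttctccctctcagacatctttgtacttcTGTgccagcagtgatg
Trbv13-2 (chr6:41121773-41121832, plus strand): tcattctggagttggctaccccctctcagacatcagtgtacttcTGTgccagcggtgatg
Trbv13-3 (chr6:41130526-41130585, plus strand): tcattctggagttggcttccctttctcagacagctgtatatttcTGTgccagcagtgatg
Trgv2 (chr13:19336573-19336632, minus strand): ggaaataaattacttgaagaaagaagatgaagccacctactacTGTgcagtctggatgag
Trdv4 (chr14:54075456-54075515, plus strand): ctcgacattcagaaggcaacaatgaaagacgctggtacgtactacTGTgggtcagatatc
Trav9-1 (chr14:53488508-53488567, plus strand): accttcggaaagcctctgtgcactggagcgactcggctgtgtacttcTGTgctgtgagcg

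The printed beta ends share the run from the cysteine codon into the next codons and differ before it. Over their aligned transcripts, Trbv13-2 and Trbv13-3 were 90.6% identical, Trbv13-1 and Trbv13-2 87.1%, and Trbv13-1 and Trbv13-3 84.4%. Trbv12-1 and Trbv12-2 were 87.4% identical. A read from any of them can still be placed: every 50-base window was searched against the other V segment transcripts of the annotation, 176 in all, and the 34 beta segments of the table had 98.8% to 100% of their windows to themselves.

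The alpha locus was different, because mouse carries repeated blocks of Trav segments whose copies bear the letters d and n. The median Trav segment of the table had 37.2% of its 50-base windows to itself. That median was 54.4% for the 29 members, 53.2% for the 22 with 1 or 2 counts and 0% for the 52 with none. Of those 52, 41 had less than 50% of their windows to themselves. Segments without a letter held 125 of the 163 alpha counts (22 members of 46 in the table), d copies 11 (3 of 32) and n copies 27 (4 of 25). How the counting treated reads that match several genes is not stated by the labels, so the counts of alpha segments are uncertain as to copy, and a Trav segment at 0 was not shown to be unused.

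**Figure D1:**
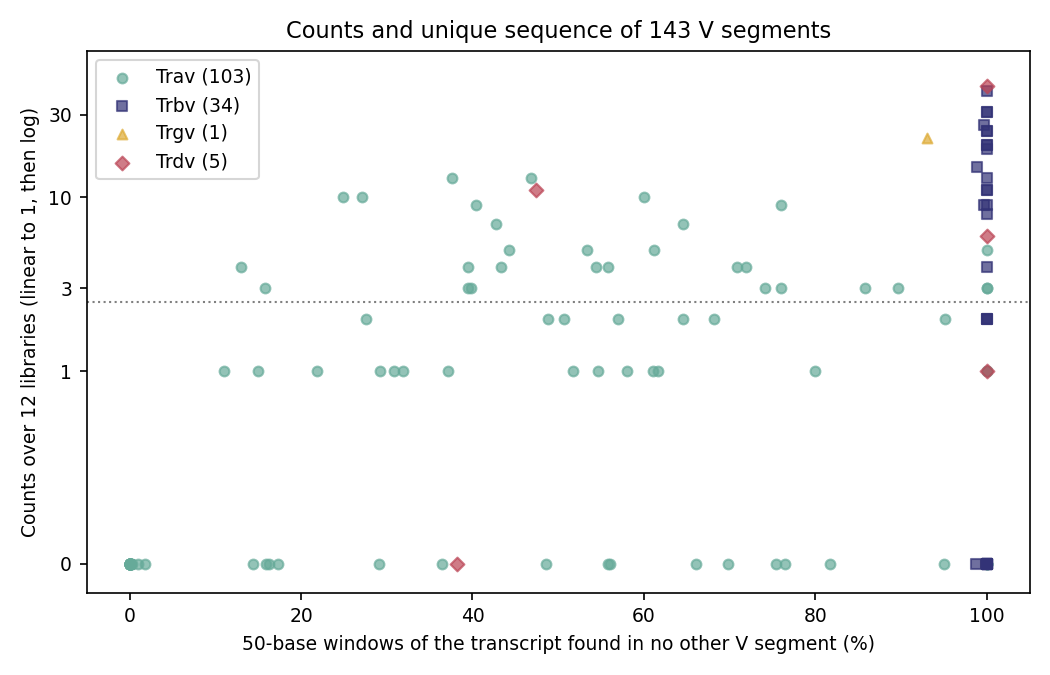
Counts over the series (vertical axis) against the share of 50-base windows found in no other annotated V segment (percent, horizontal axis). Each point is a V segment of the count table, marked by locus. A dotted line lies just below the member minimum of 3 counts. Beta segments sit between 98.8% and 100%, while the alpha segments without counts have a median of 0%.

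Reads from V segments were few in every tumour and more abundant in AHRKO. The summed V counts of WT replicates 1 to 6 were 11, 32, 15, 21, 9 and 18. Those of AHRKO replicates 1 to 6 were 272, 48, 34, 47, 18 and 37. Scaled to library size, the WT tumours held 0.446 to 1.07 CPM with a median of 0.777, and the AHRKO tumours 1.16 to 16.1 CPM with a median of 2.32. All 6 AHRKO libraries were thus above the highest WT library, and the ratio of the medians was 2.99. Neighbours across that border were not separated beyond counting error: the exact Poisson 95% interval of WT replicate 4 ran from 0.664 to 1.64 CPM and that of AHRKO replicate 5 from 0.686 to 1.83. In bulk tissue, more T cells and more receptor RNA per cell cannot be told apart.

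AHRKO replicate 1 stood far from the rest. It held 48.4% of all member counts against 7.38% of all library counts, and its V level was 6.94 times the median of the other 5 AHRKO libraries. The mean was 0.741 ± 0.253 CPM in WT and 4.45 ± 5.73 in AHRKO (SD, n = 6 each), a ratio of 6.00. Without AHRKO replicate 1 the AHRKO mean was 2.12 ± 0.574 CPM (SD, n = 5), the ratio of means 2.86 and the ratio of medians 2.98. The sum over members chosen with the results known was not tested. The 10 pan-leukocyte genes moved with it: their summed level was 196 to 389 CPM in WT, 367 to 824 in AHRKO replicates 2 to 6, and 2277 in AHRKO replicate 1.

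**Figure D2:**
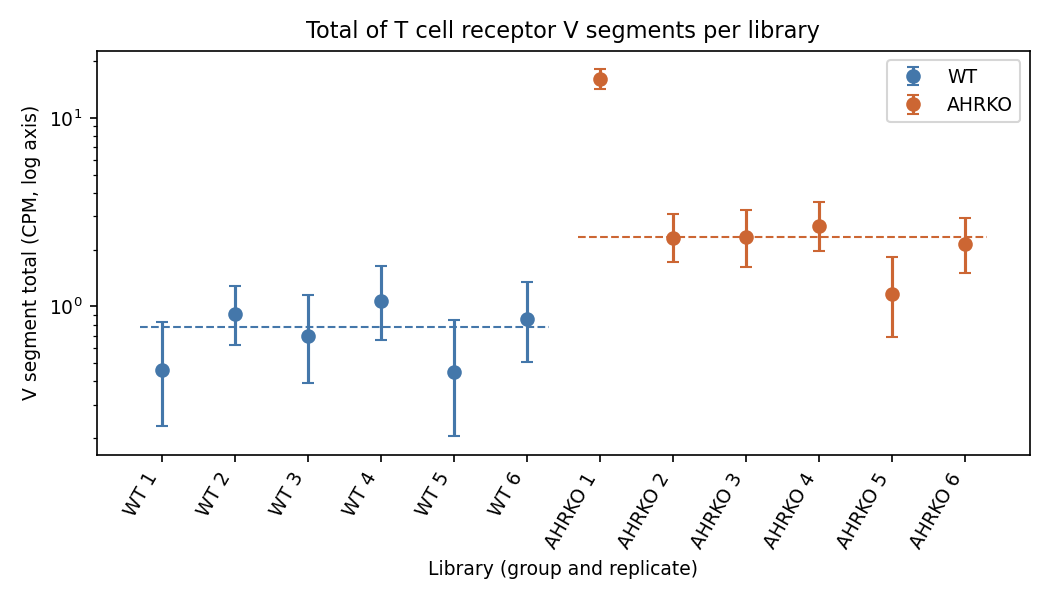
Summed level of the 50 V segments (CPM, log axis) in each WT and AHRKO library, with exact Poisson 95% intervals that cover counting error. WT libraries lie between 0.446 and 1.07, AHRKO replicates 2 to 6 between 1.16 and 2.67, and AHRKO replicate 1 at 16.1.

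Beta-chain segments held the larger part of the AHRKO reads. The Trbv counts were 0, 11, 4, 17, 3 and 3 in WT replicates 1 to 6 and 178, 17, 17, 30, 10 and 26 in AHRKO. The medians were 0.167 and 1.33 CPM, and 4 of 6 AHRKO libraries were above every WT library. Alpha-chain segments, with 5, 14, 6, 4, 4 and 9 counts in WT and 68, 20, 8, 9, 8 and 8 in AHRKO, had medians of 0.245 and 0.531 CPM, and all 6 AHRKO libraries were above every WT library. The delta-chain groups overlapped: the median was 0.193 CPM in WT and 0.248 in AHRKO, from 6, 7, 4, 0, 2 and 6 against 17, 6, 3, 7, 0 and 3 counts.

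The make-up of the V counts was also set side by side. In the pooled WT libraries (106 counts) 39.6% were alpha, 35.8% beta, 0.943% gamma and 23.6% delta. In the pooled AHRKO libraries (456 counts) 26.5% were alpha, 61.0% beta, 4.61% gamma and 7.89% delta. Without AHRKO replicate 1 the AHRKO pool held 184 counts, of which 28.8% were alpha, 54.3% beta, 6.52% gamma and 10.3% delta. By library, the median beta share was 30.0% in WT and 59.7% in AHRKO, and the median delta share 24.4% and 8.47%. The libraries overlapped in both shares: WT replicate 4, with 81.0% beta and no delta reads, lay beyond every AHRKO library in beta share, and AHRKO replicate 2 had 35.4% beta and 41.7% alpha.

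**Figure D3:**
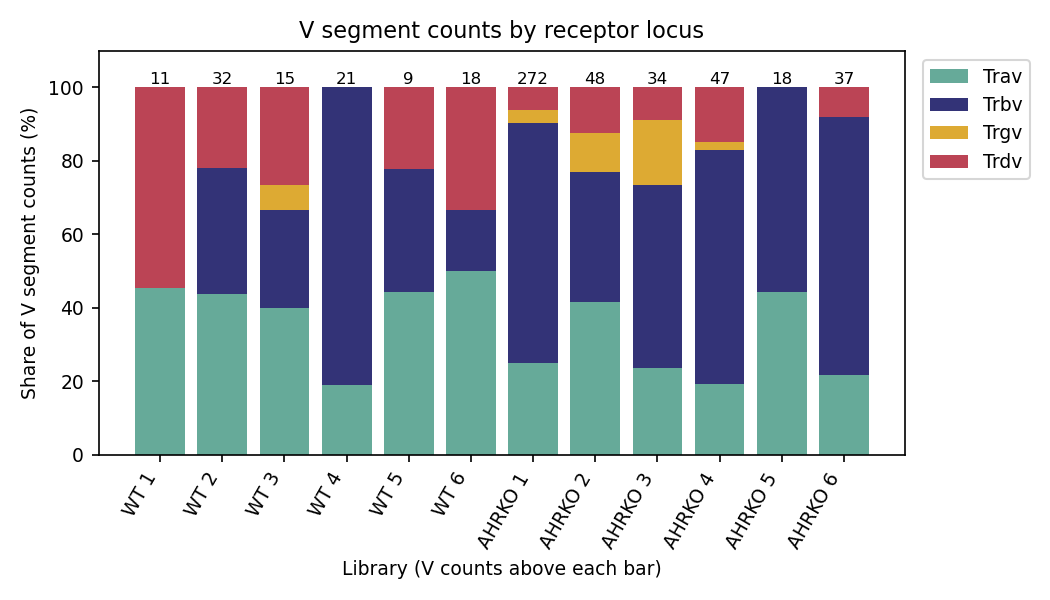
Share of each library's V counts (percent) from alpha, beta, gamma and delta segments, with the number of V counts above each bar. Beta segments take 61.0% of the AHRKO pool and 35.8% of the WT pool, and delta segments 7.89% and 23.6%.

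Among beta segments Trbv19 was the most counted (41 counts, annotated at chr6:41178375-41179048, ENSMUSG00000076475). It had 0, 2, 0, 5, 2 and 0 counts in WT and 21, 1, 4, 2, 1 and 3 in AHRKO, so that the groups overlapped and 1 library held most of the reads. Trbv1 followed with 0, 1, 1, 3, 0 and 0 counts in WT and 15, 1, 4, 0, 2 and 4 in AHRKO. Trbv3 had 0, 1, 1, 2, 0 and 0 against 15, 1, 1, 5, 1 and 4, with every AHRKO library carrying a read.

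The Trbv13 group, common in mouse peripheral T cells, had few reads in WT tumours. Beta reads as a whole were few there, with 38 counts in the WT pool and 278 in the AHRKO pool. Trbv13-2 had 0, 3, 0, 0, 0 and 0 counts in WT and 17, 0, 0, 3, 1 and 2 in AHRKO. Trbv13-1 had 1 count in WT, in replicate 2, and 11, 0, 1, 5, 1 and 0 in AHRKO. Trbv13-3 had none in WT and 4, 4, 1, 0, 0 and 0 in AHRKO.

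Trbv2 was spread more evenly across the AHRKO tumours, with 0, 1, 0, 1, 0 and 0 counts in WT and 6, 0, 4, 2, 1 and 5 in AHRKO.

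Several beta segments had no read in any WT tumour. For such segments the ratio was computed against a floor of 3 counts over the whole WT group. It takes the AHRKO counts as read, without their counting error or the spread between libraries, so it is no bound on the group difference. Trbv12-2, with 8, 0, 1, 0, 1 and 5 counts in AHRKO, was 6.87-fold above that floor. Trbv29, with 12 and 1 counts in AHRKO replicates 1 and 2, was 5.96-fold above it. The largest ratio to the floor was 11.0-fold, for Trbv15 with 19, 1, 0, 3, 1 and 0 counts (chosen after its values were seen). Each of these 3 drew most of its reads from AHRKO replicate 1. Other beta segments with WT reads were Trbv16 (0, 0, 0, 3, 0 and 2 counts in WT; 14, 2, 1, 1, 0 and 1 in AHRKO) and Trbv31 (1 count in WT replicate 5; 8 and 2 in AHRKO replicates 1 and 6). Trbv26 had 0, 2, 1, 1, 0 and 1 counts in WT and 1, 2, 0, 0, 1 and 0 in AHRKO, with the groups overlapping. These 3 were likewise chosen after their values were seen.

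Alpha segments were spread thinly. The most counted were Trav14n-3 (0, 0, 1, 1, 0 and 4 counts in WT; 5, 0, 1, 1, 0 and 0 in AHRKO) and Trav4-4-dv10, a segment that can join to either an alpha or a delta constant region (1 count in WT replicate 1; 10 and 2 counts in AHRKO replicates 1 and 4). Trav3-3 had 3 counts in WT and 7 in AHRKO, 6 of them in replicate 1. Trav13-4-dv7 was read more evenly, in 5 WT libraries (0, 1, 1, 1, 1 and 2 counts) and in 2 AHRKO libraries (2 counts each).

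Trav9-1 had the most even pattern across the AHRKO tumours. No WT library held a read of it, and AHRKO held 2, 2, 2, 1, 0 and 2, which is 4.12-fold above the floor of 3 WT counts. It was not concentrated in AHRKO replicate 1. Of its 50-base windows, 40.4% were its own, and its near copies limit how firmly the reads belong to it. Trav17 was the 1 segment with reads in WT (2 and 1 counts in replicates 2 and 4) and none in AHRKO. Trav13-2 had 6 counts in WT, 3 each in replicates 1 and 3, and 3 in AHRKO, all in replicate 2 (chosen after its values were seen). The pseudogene Trav8-2 had none in WT and 5, 0, 1, 0, 0 and 1 in AHRKO. The other alpha members had 3 to 10 counts each.

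The gamma chain entered through Trgv2 alone (chr13:19336573-19337167, minus strand, ENSMUSG00000076754). It had 1 count in WT, in replicate 3, and 9, 5, 6, 1, 0 and 0 in AHRKO. The other gamma segments are named Tcrg-V in the annotation used and so lie outside the symbol rule. Among them Tcrg-V1 had 8 counts, all in AHRKO (4, 2 and 2 in replicates 1, 2 and 6), Tcrg-V4 3 and Tcrg-V6 2, while Tcrg-V3, Tcrg-V5 and Tcrg-V7 had 0 counts. Gamma constant genes were also sparse: Tcrg-C1 summed to 6 counts in WT and 52 in AHRKO, Tcrg-C2 to 8 and 65, and Tcrg-C4 to 4 and 37. In the unfiltered edgeR test Tcrg-C2 (log2 fold change 3.25, adjusted p = 0.0355) and Tcrg-C4 (3.37, adjusted p = 0.0105) rose, and Tcrg-C1 did not pass (3.32, adjusted p = 0.0843).

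The delta segment Trdv4 had the same number of raw counts in both groups (chr14:54074905-54075515, ENSMUSG00000076867). It is used by innate-like gamma-delta T cells of skin and mucosa, and here it was the most counted V segment of the series with 44 counts. WT replicates 1 to 6 held 6, 7, 4, 0, 1 and 4 of them and AHRKO replicates 7, 5, 2, 5, 0 and 3. Each group thus summed to 22 raw counts, with AHRKO libraries holding 42.2% of all library counts. Scaled to library size, Trdv4 was at 0.146 ± 0.0983 CPM in WT and 0.208 ± 0.141 in AHRKO (SD, n = 6 each). The groups overlapped, and AHRKO replicates 1 and 4 were above the highest WT library. Trdv5 had 3 counts in each group. Trdv2-2 had no read in WT and 8, 1, 1, 1, 0 and 0 in AHRKO, 5.04-fold above the floor of 3 WT counts.

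Each of the 3 delta segments overlaps a gene on the opposite strand in the annotation: Trdv4 overlaps Gm30275, Trdv2-2 Gm43647, and Trdv5 lies across the delta constant gene Trdc. Whether the counting used strand is not stated by the labels, so reads of the partners cannot be told apart, and Trdc itself was not analysed here. Without Trdv4 the V counts were 5, 25, 11, 21, 8 and 14 in WT and 265, 43, 32, 42, 18 and 34 in AHRKO. The ratio of the medians then was 3.63 in place of 2.99.

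**Figure D4:**
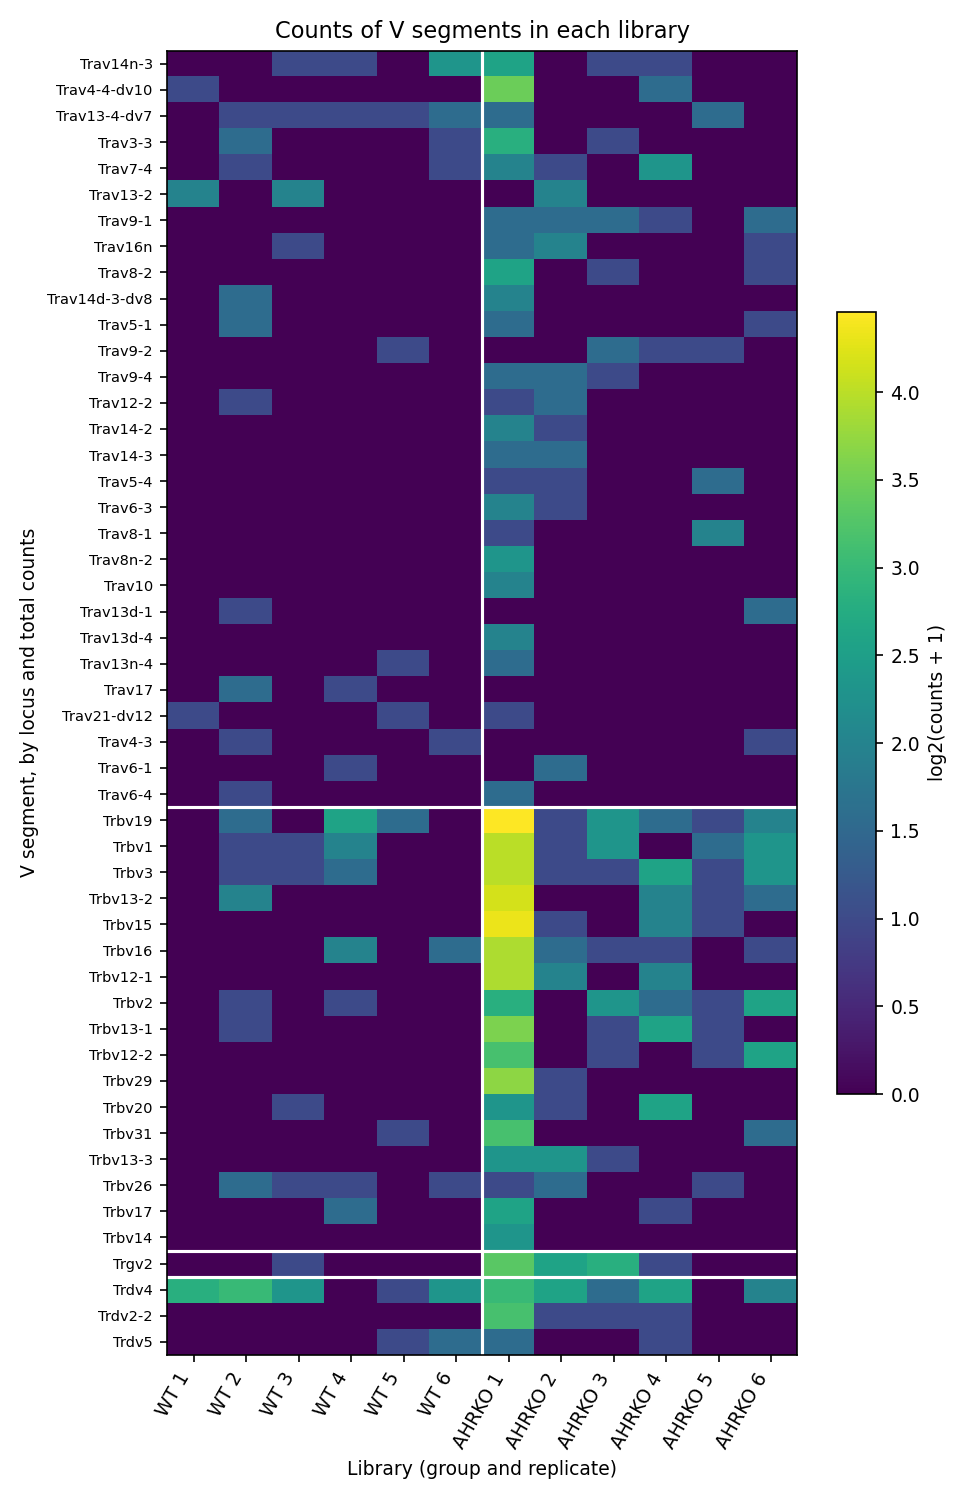
Read counts of the 50 V segments (colour, log2 of counts plus 1), with 1 line per segment grouped by locus and 1 column per library. Trdv4 has 22 raw counts in each group, while most beta segments are at 0 in most WT libraries and highest in AHRKO replicate 1.

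More segments were seen in AHRKO tumours, but so were more V reads. WT replicates 1 to 6 showed 4, 18, 10, 11, 8 and 9 of the 50 segments and AHRKO 44, 24, 17, 19, 13 and 15. The medians were 9.5 and 18, and 3 of 6 AHRKO libraries exceeded every WT library. The number expected in 9 V counts, the lowest total, puts the libraries on equal footing: it was 3.64, 7.32, 6.75, 6.57, 8.00 and 6.21 in WT and 7.83, 7.78, 7.09, 7.30, 7.69 and 7.03 in AHRKO. At that depth no AHRKO library exceeded every WT library. At 18 V counts, which 3 WT libraries reach, the values were 12.4, 10.1 and 9.0 in WT replicates 2, 4 and 6, and 11.0 to 13.6 in AHRKO, where 3 of 6 libraries exceeded every WT library that could be compared.

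The pooled reads gave a like picture. In the WT pool 106 counts showed 32 segments. The AHRKO pool showed 49 in all and 36.7 expected in 106 counts, or 35.4 without AHRKO replicate 1. Reads without molecular identifiers are not independent molecules, so these expectations cover counting alone.

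**Figure D5:**
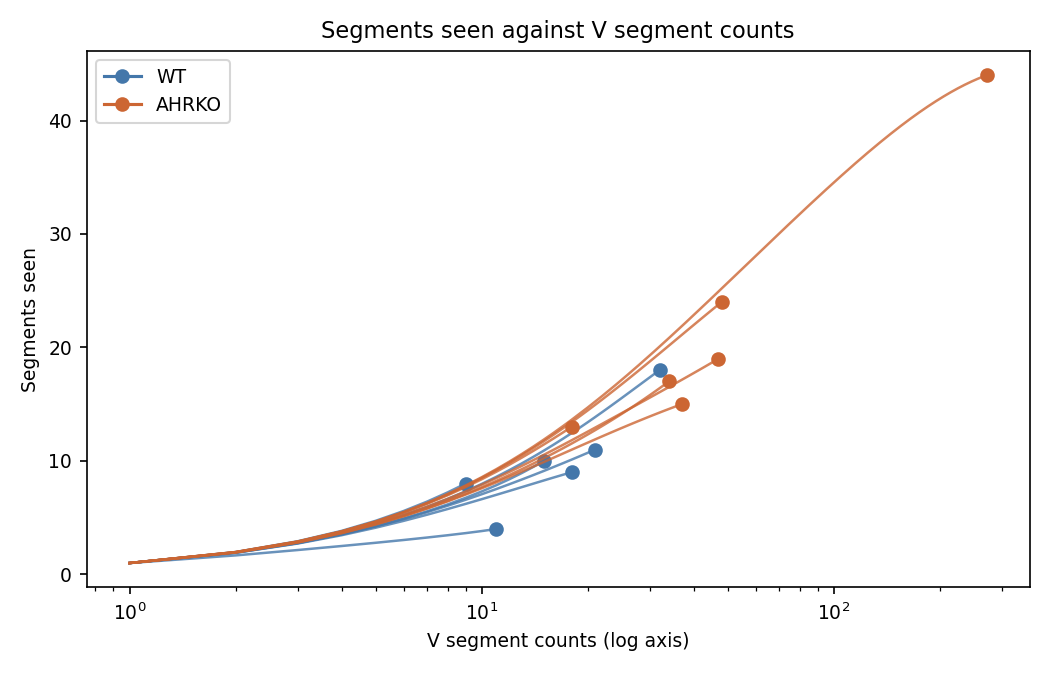
Number of V segments seen per library (vertical axis) against its V counts (log horizontal axis), and the number expected in 9 V counts. AHRKO replicate 1 shows 44 segments from 272 counts, and in 9 counts the AHRKO libraries span 7.03 to 7.83 and the WT libraries 3.64 to 8.00.

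Over all loci together, no segment dominated the V counts of an AHRKO tumour. The top segment of WT replicates 1 to 3 was Trdv4, with 54.5%, 21.9% and 26.7% of the library's V counts. Trbv19 led WT replicates 4 and 5 with 23.8% and 22.2%, and Trav14n-3 and Trdv4 tied in replicate 6 with 22.2%. In AHRKO replicate 1 Trbv19 led with 7.72% (exact Clopper-Pearson 95% interval 4.84% to 11.6%).

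The other AHRKO libraries had different leaders. Trdv4 and Trgv2 tied in replicate 2 (10.4%), and Trgv2 led replicate 3 (17.6%). Trbv13-1, Trbv20, Trbv3 and Trdv4 tied in replicate 4 (10.6%). Trav8-1, with 3 counts, led replicate 5 (16.7%), and Trbv12-2 and Trbv2 tied in replicate 6 (13.5%). The median top share was 23.0% in WT and 12.1% in AHRKO, and all 6 AHRKO libraries were below every WT library.

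A library with few V reads cannot show a low top share, and the libraries differed in V reads. WT replicate 6 and AHRKO replicate 5 had 18 V counts each. Their top shares were 22.2% (6.41% to 47.6%) and 16.7% (3.58% to 41.4%), with overlapping exact intervals.

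Many segments were read in AHRKO tumours and not in WT tumours. Of the 50 segments 18 had reads in AHRKO and none in WT, 1 had reads in WT alone and 31 were in both. Over the 25640 genes with 3 or more counts the shares were 1.9% and 2.73%. Among genes with no more counts than the highest member they were 5.9% and 9.06%. Without AHRKO replicate 1 there were 14 segments with reads in AHRKO and none in WT, and 4 segments (Trav8n-2, Trbv14, Trav10 and Trav13d-4) were read in that library alone.

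Reads were too sparse for single segments to separate the groups. AHRKO replicate 1 held the highest count, ties included, in 37 of 50 segments. In 9 segments reads came from 6 or more libraries, with Trdv4 the most widespread at 10. No segment had all AHRKO libraries above all WT libraries, against 3.75% of genes with 3 or more counts, and none had them all below, against 4.73%. The 21 segments with 10 or more counts held 419 of the 562 counts (74.6%).

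Testing gene by gene was limited by the same sparseness. In edgeR's quasi-likelihood test with its low-count filter, 2451 of 15449 genes (15.9%) rose in AHRKO and 2106 (13.6%) fell, at an adjusted p under 0.05, but no V segment passed the filter, so none was tested there or by DESeq2 and limma, which used the same filter. With no filter, 29021 genes were tested, 7.43% rose and 6.49% fell. Of the 50 segments 5 rose, beside 8.4% of the genes with 3 or more counts, and none fell. The share of segments that rose was thus near that of genes with 3 or more counts. At an unadjusted p under 0.05, 24 were higher and none lower, and 45 had a log2 fold change above 0. The shares of all genes for these tallies were not computed. Because 18 of the 50 reached the count minimum with no WT read, the tallies partly follow from how the members were chosen.

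The 5 that rose were Trav9-1, Trgv2, Trbv2, Trbv13-1 and Trbv3. The log2 fold change was 3.97 ± 1.11 (SE) for Trgv2 (edgeR adjusted p = 0.0281) and 3.20 ± 0.91 for Trbv2 (adjusted p = 0.0296). It was 3.82 ± 1.14 for Trbv13-1 (adjusted p = 0.0377) and 2.93 ± 0.89 for Trbv3 (adjusted p = 0.0414). Trav9-1, with an adjusted p of 0.0216, remained called when any 1 of the 12 libraries was left out (adjusted p = 0.0108 to 0.0427), and the other 4 in 4 to 6 of the 12 cases. Leaving out AHRKO replicate 1, the adjusted p of Trbv13-1 was 0.0937 and that of Trbv3 0.111. In WT, Trav9-1, Trgv2, Trbv2 and Trbv13-1 had 0, 1, 2 and 1 counts, so they reached the minimum of 3 through AHRKO reads. Their calls, with or without a library left out, therefore partly follow from how the members were chosen.

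Among the segments that did not pass were several with many counts. Trbv19 had an adjusted p of 0.161, Trbv1 0.0927, Trbv13-2 0.0891, Trbv12-2 0.0505 and Trbv29 0.120 in the same unfiltered edgeR test. Trdv4 had a log2 fold change of 0.46 ± 0.68 (SE) and an adjusted p of 0.675, and Trav14n-3 an adjusted p of 0.783. The median log2 fold change over the 50 was 2.57 as fitted. It was 1.31 with the segments absent from WT set at the floor of 3 WT counts. Over all genes tested without a filter it was 0.0094, but these include genes under the member minimum of 3 counts. As 18 of the 50 had no WT read, the medians of the segments partly follow from how the members were chosen.

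Genes of the receptor that the rule did not use were abundant enough to test. All 3 constant-region genes that passed the low-count filter rose. Trac, the alpha constant gene, had 32, 90, 40, 48, 27 and 31 counts in WT and 329, 67, 66, 60, 29 and 63 in AHRKO; the groups overlapped in counts, and its log2 fold change was 1.71 ± 0.52 (SE, edgeR adjusted p = 0.0271). That of Trbc1, a beta constant gene, was 3.17 ± 0.71 (adjusted p = 0.00636) and that of Trbc2 2.94 ± 0.74 (adjusted p = 0.0114).

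The signalling chains of the receptor complex moved alike. The log2 fold change was 2.91 for Cd3d, 3.05 for Cd3e, 3.11 for Cd3g and 2.91 for Cd247, the zeta chain, and all 4 passed. Without AHRKO replicate 1 all 7 genes still passed, with lower log2 fold changes of 0.85 for Trac, 2.01 for Trbc1, 1.80 for Trbc2, 2.06 for Cd3d, 2.30 for Cd3e, 2.21 for Cd3g and 1.87 for Cd247. The call of Trac was lost without WT replicate 1, 5 or 6 (adjusted p = 0.0572, 0.0596 and 0.0568).

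V counts were then set against those of the constant genes. There were 15.3 Trav counts per 100 Trac counts in the median WT library (8.33 to 29.0) and 17.8 in AHRKO (12.1 to 29.9). For beta it was 11.5 Trbv counts per 100 of Trbc1 plus Trbc2 (0 to 32.7) in WT and 19.8 (8.95 to 28.6) in AHRKO. The ranges overlapped for both chains. The difference in the alpha medians was 2.56 with all libraries, -0.28 without AHRKO replicate 1, 2 or 5, and 5.39 without AHRKO replicate 3, 4 or 6.

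The balance of alpha to beta constant reads did differ. WT replicates 1 to 6 held 188, 111, 67.8, 92.3, 90.0 and 135 Trac counts per 100 Trbc counts and AHRKO 33.8, 35.3, 54.1, 42.6, 82.9 and 55.3. In 5 of 6 AHRKO libraries the ratio was below every WT library, and AHRKO replicate 5 lay inside the WT range. The ratio was not tested.

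Most tested coreceptor and signalling genes followed the receptor chains. Of 20 genes for coreceptors and proximal signalling, 18 passed the low-count filter, 16 of these rose and none fell, with a median log2 fold change of 2.34 beside 0.023 over all tested genes. Cd6, a T cell surface receptor, had a log2 fold change of 2.63 and of 1.88 without AHRKO replicate 1, and passed in both. In the same filtered test, of 8 naive and central memory T cell genes 5 rose and none fell. Tcf7, a T cell transcription factor, was among those that rose (0.54). It did not follow the V reads: AHRKO replicate 1 was its lowest AHRKO library at 44.3 CPM. Lef1 and Klf2 of the same list went the other way without passing. Lef1 had 687 counts in WT and 324 in AHRKO, and Klf2 had 12248 and 6299.

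Genes of receptor gene recombination were counted next. Of 11 such genes 7 passed the low-count filter, none of these 7 rose, and 1 fell: Lig4, the ligase that closes the joints and also serves general DNA repair (log2 fold change -0.55, edgeR adjusted p = 0.027). That call was lost without WT replicate 4, 5 or 6 (adjusted p = 0.0579, 0.0619 and 0.0605) and without AHRKO replicate 4 (0.0521). Rag2 had 0 counts in every library. Rag1, its partner in the recombinase, had 4, 0, 0, 6, 1 and 4 counts in WT and 0 in every AHRKO library, and did not pass the unfiltered edgeR test (adjusted p = 0.0815). Dntt, which adds bases at the joint, summed to 8 counts in WT and 79 in AHRKO, 52 of them in replicate 1, and rose in the unfiltered edgeR test (log2 fold change 3.69, adjusted p = 0.0233).

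Receptors of innate-like T cells could be read in part. Trav11 and Trav11d, used by invariant NKT cells, had 0 counts, but none of their 50-base windows was their own, so a 0 says nothing of their use if shared reads were dropped. Trav1, used by MAIT cells, also had 0 counts with all windows its own. Of the NKT genes 5 were tested and 3 rose, Slamf6, a costimulatory receptor (log2 fold change 2.33), and Il2rb, a cytokine receptor chain shared with NK cells (2.62, or 1.75 without AHRKO replicate 1), among them.

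Among gamma-delta T cell genes 4 of 12 passed the low-count filter and 1 of these rose, Blk, a kinase of B cells and gamma-delta T cells, by 6.34 on the log2 scale. Blk did not follow the V reads: AHRKO replicate 1, the highest for V segments, was the lowest AHRKO library for Blk at 14.1 CPM, and AHRKO replicate 5, the lowest for V segments, had 109 CPM. Il17a had 0 counts in every library.

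Most tested genes of other immune cells rose in the same tumours. Of 4 B cell genes tested 3 rose (Cd22 2.20, Cd79b 2.99 on the log2 scale), of 8 NK cell genes 5 (Ncr1 2.84, Klrd1 2.86), of 10 macrophage and monocyte genes 9 (Fcgr1 1.81, C1qc 1.60), and of 10 pan-leukocyte genes all 10 (Cd52 2.33, Coro1a 2.02). No gene of these lists passed as lower. Klra4, the NK cell gene with the most counts, went the other way without passing, with 2195 counts in WT and 1045 in AHRKO. Without AHRKO replicate 1 the log2 fold change was 2.17 for Cd79b, 1.89 for Ncr1 and 1.84 for Klrd1, and these 3 still passed. The summed level of the 9 B cell genes was 2.64 to 5.21 CPM in WT, 5.01 to 23.7 in AHRKO replicates 2 to 6 and 43.7 in AHRKO replicate 1. The 9 NK cell genes summed to 20.8 to 37.2, 11.0 to 52.4 and 160 CPM, and the 10 macrophage genes to 857 to 1611, 1162 to 3121 and 7048 CPM. The B cell marker Ms4a1 was at 0 in 1 WT library and no AHRKO library. Pax5 was at 0 in 3 WT libraries and 1 AHRKO library, Cr2 in 1 and 2, and Fcmr in 3 and 2. Cr2 had more counts in WT (29) than in AHRKO (15). Every NK cell and macrophage gene had reads in every library. The part of other immune cells in these values was not tested.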

How the data were processed

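RNA of 12 tumour samples (6 WT, 6 AHRKO by the genotype label) was measured by poly-A RNA-seq. The authors deposited raw read counts per gene. Per the submitters' processing notes they used HISAT2, SAMtools, HTSeq, DESeq2 and mm10; the gene annotation, strand setting and treatment of shared reads: not given in the sources used here. Symbols and coordinates were joined by gene identifier from GENCODE M21 (42462 of 43432 genes matched). Counts were scaled by TMM, filtered with filterByExpr and compared by edgeR 4.0.16's two-sided quasi-likelihood test in R 4.3.3, p-values adjusted by Benjamini-Hochberg across the whole table of tested genes, threshold 0.05. The fit was tested on simulated data. Alternatives used DESeq2 1.42.0, limma 3.58.1, other scalings, filters and member minimums, the replicate number as a block, and each library left out. Intervals are exact at 95% and, like the floor of 3 counts, cover counting error, since reads are not molecules; library totals of 14772343 to 35881469 counts set the precision. Named segments were the 4 most counted of each locus, each library's top segment, and the segments of semi-invariant receptors; from other lists up to 2 called genes with the smallest p, plus all constant and CD3 genes. The V segments called without a filter, and others said to be so, were chosen after their values were seen. Some genes that the rule takes are not given here. Members and lists were chosen with earlier results of these data known.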

Additional observations from a re-analysis of the deposited data

Results flagged for a closer look

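In a group of 6 libraries a value was singled out when the gap from the highest or lowest library to its neighbour was a large share of the group's range. The limit was Dixon's 95% critical value, which chance exceeds in about 1 of 20 groups of normally distributed values. Many groups here hold sparse counts, where 1 read in 1 library can make the gap the whole range. The rate of 1 in 20 does not apply to them. Of 114 groups, 44 were singled out, and many are not independent because the same reads enter several of them. In AHRKO, replicate 1 was the high library for the V total (gap 0.898 of the range), segments seen (0.645), Trav (0.859) and Trbv (0.892). It was so for the segments Trav14n-3 (0.768), Trav3-3 (0.807), Trav4-4-dv10 (0.808), Trbv1 (0.691), Trbv13-2 (0.83), Trbv19 (0.811), Trbv29 (0.932), Trbv3 (0.719) and Trdv2-2 (0.855). Receptor genes outside the rule showed the same library: Trac (0.849), Trbc1 (0.863), Trbc2 (0.864), Cd3d (0.79), Cd3e (0.805), Cd3g (0.824), Cd247 (0.833), Tcrg-C1 (0.871), Tcrg-C2 (0.844) and Tcrg-C4 (0.813). So did Cd6 (0.813), Dntt (0.775), Il2rb (0.818), Ncr1 (0.773), Klrd1 (0.853), Fcgr1 (0.724), Cd52 (0.633) and Coro1a (0.715).

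The exception in AHRKO was Trav8-1, highest in replicate 5 (0.693). In WT, replicate 1 was high for the top share (0.853) and for Trav4-4-dv10 (1.0), and replicate 4 for Trbv (0.639), Trbv1 (0.696) and Tcrg-C2 (0.883). WT replicate 6 was high for Trav per 100 Trac counts (0.648) and Trav14n-3 (0.731). A gap of 1.0 was found where 1 WT library held every read of the group: replicate 2 for Trbv13-1 and Trbv13-2, and replicate 3 for Trbv20 and for Trgv2, which is the whole of the gamma total.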

How the results depend on the processing

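The differences in V total, segments seen, top share and locus medians kept their direction under every scaling, member minimum and left-out library run. With a member minimum of 10 counts the difference in Trav medians was 0.035 CPM in place of 0.287, and with the libraries brought to 9 V counts that in segments seen was 0.84 in place of 8.5. Leaving out each library in turn gave a log2 ratio of V medians of 1.44 to 1.74, a difference in segments seen of 7.5 to 9.5 and in top share of -12.4 to -9.50 percentage points; Trav per 100 Trac counts changed sign without AHRKO replicate 1, 2 or 5 (-0.28, against 2.56 with all libraries). No V segment rose with the low-count filter, 5 did without it, and 1 to 6 did without it when each library was left out. Without WT replicates 1 to 6 the number was 1, 2, 1, 3, 1 and 1, and without AHRKO replicates 1 to 6 it was 3, 6, 3, 4, 6 and 4. Leaving out each library with the filter gave 1822 to 2980 genes that rose and 1632 to 2778 that fell. With the replicate number as a block, 1114 genes rose and 1240 fell (2451 and 2106 without it), and 3 of the 7 constant and CD3 genes rose. The block with no filter called 0 V segments in edgeR, with 7 at an unadjusted p under 0.05. The numbers do not pair the samples: libraries of the same number correlated at -0.47, -0.21, -0.11, -0.14, -0.11 and 0.03 in their deviations, and 0 of 6 matched their own number best. Depth limits single segments: no V segment passed the low-count filter.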

Other observations

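Joining segments, which lie between the V segments and the constant genes, were not members and give a further count of the same chains. Most beta joining segments were read mainly in AHRKO: Trbj1-3 had 8 counts in WT and 32 in AHRKO, Trbj1-5 5 and 32, and Trbj1-4 3 and 27. Traj32, an alpha joining segment, went the other way with 26 counts in WT (1, 7, 7, 5, 3 and 3) and 7 in AHRKO (0, 1, 4, 1, 1 and 0). Other alpha joining segments went either way. Traj7 had 5 counts in WT and 1 in AHRKO and Traj27 3 and 1, whereas Traj1 had 5 and 15 and Traj3 1 and 6. The alpha joining segments thus had no shared direction. These segments were chosen after their values were seen, and none was tested here. Reads that cross unrearranged parts of the locus are not told apart from reads of joined genes in a table of counts per gene.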
